A study of Homo sapiens with 18 samples.

Results

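The genes described here are 10 genes of luminal urothelial differentiation, found as the rows of the deposited table whose Ensembl identifier belongs to GATA3, FOXA1, PPARG, ELF3, GRHL3, KLF5, UPK1A, UPK1B, UPK2 or UPK3A. They are 10 of the 16575 genes in the table. All 10 reached the minimum of 5 CPM (counts of tags scaled to a common library total) in at least 1 library, but GRHL3 and UPK3A reached it only in the library labelled CAL-29 WK, and UPK1A only in RT-112.

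The urothelium is the stratified lining of the bladder, with basal cells at the bottom and umbrella cells on the luminal surface. The nuclear receptor PPARG, the zinc finger factor GATA3 and the pioneer factor FOXA1 are known to act together in the luminal programme, with ELF3, GRHL3 and KLF5 as further epithelial transcription factors. Uroplakins are the membrane proteins of the plaques that make the luminal surface impermeable. The tetraspanins UPK1A and UPK1B pair with UPK2 and UPK3A respectively, and uroplakins are used as markers of luminal bladder cancer.

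The measurement was CAGE-seq, a count of RNA molecules at their capped start, in 18 libraries of CAL-29, HT-1376 and RT-112, which are established bladder carcinoma lines. Each line carried 2 lentiviral transductions, first with WWOX, a tumour suppressor, or a blank vector, and then with AP-2α, AP-2γ or a blank vector, and both steps were followed by antibiotic selection (puromycin, then G418). The variants were KK (blank in both), KA (blank, then AP-2α), KC (blank, then AP-2γ), WK (WWOX, then blank), WA (WWOX, then AP-2α) and WC (WWOX, then AP-2γ), with 1 library of each in each line. All libraries, KK included, therefore went through both transductions and both selections. The transgenes were driven by CMV promoters, so their levels were not under the control of the native genes. RT-112 was grown in RPMI-1640, HT-1376 in high-glucose DMEM with more serum and CAL-29 in DMEM, so the line and its medium cannot be told apart.

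The libraries held 13357102 to 17958572 reads on genes. The limit that a count of 0 allows, 3 reads, was worth 0.158 to 0.213 CPM (counting error only). The library labelled CAL-29 KC resembled HT-1376 (median r of 0.94 with its libraries, 0.741 with those of CAL-29), so it was left out of all fits but the comparison of variants and is given apart. WWOX was not higher in WK than in KK of RT-112 (22.33 and 26.04 CPM) or HT-1376 (18.58 and 22.36 CPM), whereas in CAL-29 it was 154.92 against 63.68 CPM. A transgene transcript starts in the vector, so its tags need not be counted on the native gene, and W is used below for the libraries labelled with WWOX. The epithelial markers EPCAM and CDH1 were present in all 18 libraries, with at least 20.87 CPM and 74.24 CPM. VIM, a mesenchymal marker, was at 0 in all libraries of RT-112 and HT-1376.

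Promoter windows are shown for FOXA1 and UPK1A, whose presence set the lines apart, and for UPK1B, which was abundant in all lines. They are also shown for KLF5, the gene that passed the test of W within CAL-29. No window was available for UPK2 or UPK3A. Each window of 300 bases lies around an annotated start (RefSeq, GRCh38.p14), mostly upstream of it, 5′ to 3′ on the strand of the gene. Capitals mark matches, on either strand, to short motifs that are spelled out after the sequences, of which those of the GC box and the KLF element may overlap.
FOXA1, chr14:37595200-37595499, minus strand: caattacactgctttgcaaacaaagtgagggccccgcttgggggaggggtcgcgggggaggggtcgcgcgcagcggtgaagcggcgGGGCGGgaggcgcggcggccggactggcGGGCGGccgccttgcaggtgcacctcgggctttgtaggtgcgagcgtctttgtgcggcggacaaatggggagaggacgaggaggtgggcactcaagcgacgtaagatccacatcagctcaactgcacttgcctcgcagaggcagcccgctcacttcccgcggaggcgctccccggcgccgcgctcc
UPK1A, chr19:35666267-35666566, plus strand: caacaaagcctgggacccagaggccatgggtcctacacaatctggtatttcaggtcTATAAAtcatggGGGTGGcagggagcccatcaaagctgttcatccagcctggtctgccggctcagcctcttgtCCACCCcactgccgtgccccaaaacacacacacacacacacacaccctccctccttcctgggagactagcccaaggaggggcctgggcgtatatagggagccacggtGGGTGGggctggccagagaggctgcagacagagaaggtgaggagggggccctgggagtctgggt
UPK1B, chr3:119173348-119173647, plus strand: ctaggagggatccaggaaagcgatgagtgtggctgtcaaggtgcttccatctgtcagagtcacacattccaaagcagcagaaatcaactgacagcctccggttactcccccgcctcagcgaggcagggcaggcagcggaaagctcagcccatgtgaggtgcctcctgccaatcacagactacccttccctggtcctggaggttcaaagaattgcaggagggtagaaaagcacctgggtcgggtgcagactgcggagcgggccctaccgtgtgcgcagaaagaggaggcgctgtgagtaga
KLF5, chr13:73054726-73055025, plus strand: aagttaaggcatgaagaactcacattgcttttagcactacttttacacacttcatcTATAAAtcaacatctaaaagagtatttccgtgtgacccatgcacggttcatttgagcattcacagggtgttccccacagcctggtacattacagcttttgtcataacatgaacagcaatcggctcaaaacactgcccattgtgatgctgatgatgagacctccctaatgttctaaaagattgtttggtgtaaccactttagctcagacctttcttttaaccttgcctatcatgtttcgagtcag
KLF5, chr13:73058755-73059054, plus strand: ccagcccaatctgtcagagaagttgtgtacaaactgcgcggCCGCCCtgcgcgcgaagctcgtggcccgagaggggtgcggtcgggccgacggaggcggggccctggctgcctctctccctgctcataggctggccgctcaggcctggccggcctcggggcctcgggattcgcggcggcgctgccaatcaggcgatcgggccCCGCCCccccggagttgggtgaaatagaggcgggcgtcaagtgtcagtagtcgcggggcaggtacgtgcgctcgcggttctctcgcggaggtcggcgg

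The FOXA1 window and the downstream KLF5 window were rich in CpG, with an observed over expected CpG ratio of 0.966 and 0.978 against a median of 0.577 over all windows, and each held 2 GC boxes. The UPK1A window had a ratio of 0.145, with 1 TATA box and 3 KLF elements, and the UPK1B window a ratio of 0.434 and none of the searched letters. In all, 8 of the 10 genes had windows, 20 in number, with 6 of PPARG and 6 of GATA3 at alternative starts, several of which overlap. The AP-2 motif, GCCNNNGGC, was in 4 of these 20 windows (3 of GATA3 and 1 of GRHL3) and in 23.2% of all 34941 windows. The TATA box, TATAAA, was found in 6 of the windows of the luminal genes, and 11.6% of all windows held it. For the GC box, searched with the letters GGGCGG, these values were 7 windows and 44.9%. The KLF element, which members of the family of KLF5 are known to bind, was searched with the letters CCACCC and was in 9 windows (34.3% of all). The GATA motif, with the letters AGATAA in this search, was in 2 windows of the luminal genes and in 10.4% of all. The forkhead motif of factors such as FOXA1, written TGTTTAC here, was in 0 windows (3.42% of all). The GRHL motif, which is not marked in the sequences, was searched as AACCNGTT and was in 1 window (1.73% of all). The deposited values are per gene, so they do not say which start was used.

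The luminal genes that differed most between the cell lines were FOXA1, UPK1A, UPK2 and UPK3A, each at or near 0 in at least 1 line. FOXA1, on chromosome 14 from 37589552 to 37596059 (GENCODE, GRCh38), was between 31.53 and 53.29 CPM in the 6 libraries of RT-112 (median 37.7). In the 5 libraries of CAL-29 it was 66.04 CPM in KK, 56.84 in KA, 176.46 in WK, 124.09 in WA and 63.03 in WC. HT-1376 had 0 to 2 reads of FOXA1 in each library, no more than the limit that a count of 0 allows. The mean level was thus at least 216-fold lower in HT-1376 than in RT-112 and at least 527-fold lower than in CAL-29, with the mean of that limit over the libraries of HT-1376 as the floor. FOXA1 was 0 CPM in the library labelled CAL-29 KC.

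UPK1A, on chromosome 19 from 35666517 to 35678481, was found mainly in RT-112, where its libraries held 6.68 to 12.52 CPM (median 7.83). In HT-1376 no read was counted in any of the 6 libraries, so the mean of RT-112 was at least 47.3-fold higher. In CAL-29 it was 3.09 CPM in WK (56 reads), 0.71 CPM in WA (13 reads), 0.11 CPM in KK and 0 in KA and WC. UPK2, the partner of UPK1A, on chromosome 11 from 118925164 to 118958559, followed the same order of lines. Its libraries held 26.67 to 43.71 CPM in RT-112, 2.63 to 16.19 CPM in CAL-29 and 0.21 to 0.79 CPM in HT-1376, with no overlap between any pair of lines.

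UPK3A, on chromosome 22 from 45284949 to 45295874, was the uroplakin counted beyond the limit in CAL-29 alone. It was 1.35 CPM in KK, 0.94 in KA, 6.08 in WK, 0.55 in WA and 0.11 (2 reads) in WC of that line. RT-112 had no read in any of its 6 libraries and HT-1376 had 3 reads over all of its 6. UPK1B, the tetraspanin that pairs with UPK3A, on chromosome 3 from 119173517 to 119205143, was abundant in all lines and did not follow its partner. It ranged from 189.05 to 828.52 CPM in RT-112, from 268.56 to 946.48 CPM in HT-1376 and from 20.57 to 560.22 CPM in CAL-29. Its libraries overlapped in each pair of lines. In limma UPK1B did not pass in RT-112 against HT-1376 (adjusted p = 0.931), nor for either line against CAL-29 (0.0897 and 0.0839), but it was higher in RT-112 than in CAL-29 in DESeq2 (log2FC of 1.74, adjusted p = 0.0246) and after TMM scaling in limma (2.20, 0.0142), and higher in HT-1376 than in CAL-29 after TMM scaling (1.87, 0.039).

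**Figure D1:**
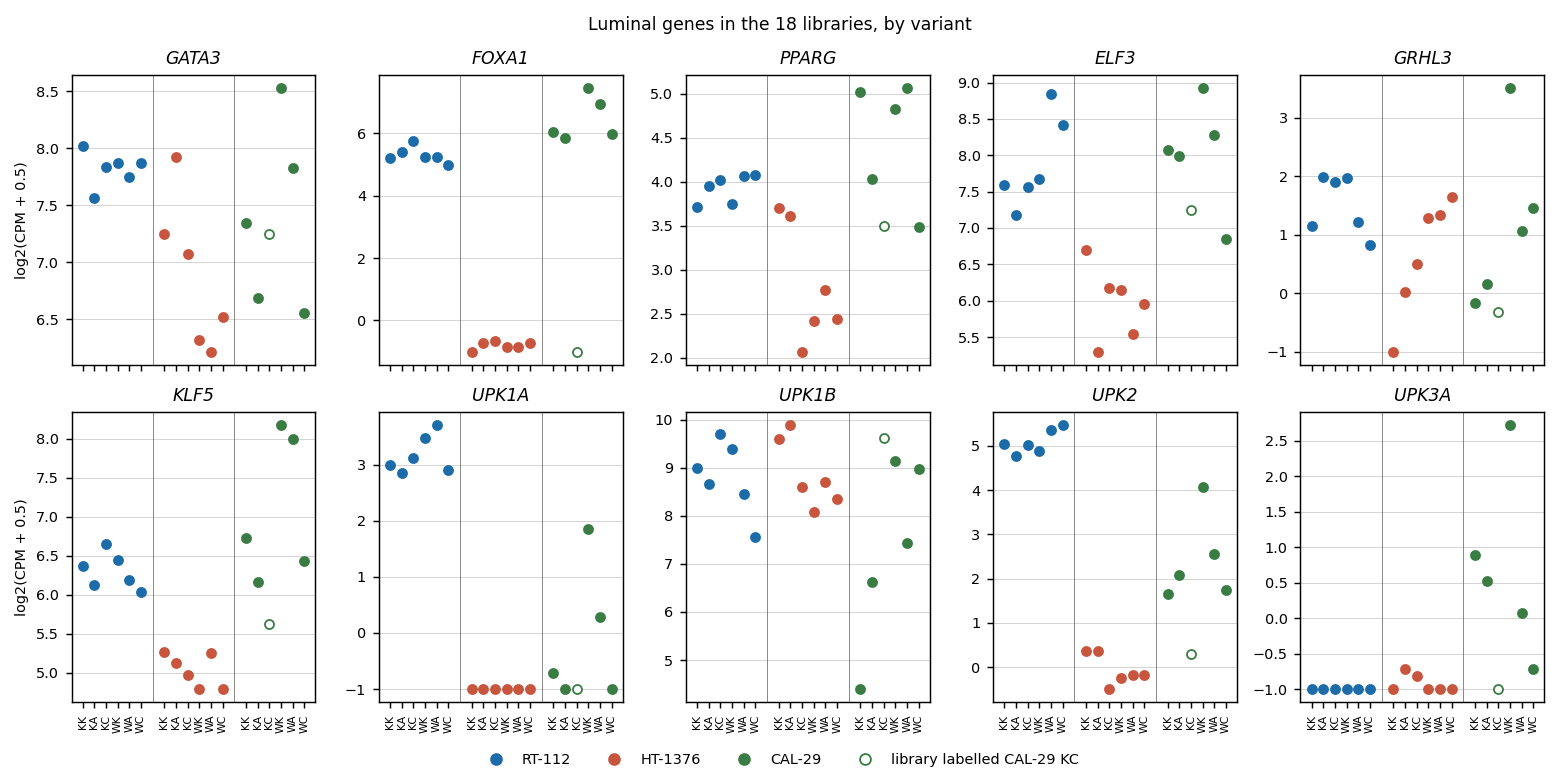
Level of each of the 10 luminal genes as log2(CPM + 0.5) in the 18 libraries, by cell line (colour) and variant (horizontal axis), with 1 point per library and the library labelled CAL-29 KC as an open point. FOXA1 was at most 0.14 CPM in HT-1376, UPK1A was at 0 CPM there and UPK3A at 0 CPM in RT-112, whereas UPK1B was abundant in all lines.

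The transcription factors other than FOXA1 were present in all lines, and each had its lowest mean in HT-1376. ELF3, on chromosome 1 from 202007945 to 202017183, averaged 254.7 ± 120.1 CPM in RT-112 (SD, n = 6), 287.1 ± 133.8 CPM in CAL-29 (n = 5) and 65.3 ± 22.8 CPM in HT-1376 (n = 6). KLF5, on chromosome 13 from 73054976 to 73077541, averaged 79.3 ± 13.0 CPM, 161.0 ± 102.3 CPM and 32.6 ± 4.82 CPM in the same order. Neither gene overlapped between HT-1376 and the other lines. PPARG, on chromosome 3 from 12287368 to 12434356, averaged 14.8 ± 1.68 CPM in RT-112, 23.96 ± 10.1 CPM in CAL-29 and 7.33 ± 3.80 CPM in HT-1376, where KK and KA, at 12.50 and 11.69 CPM, lay just below the lowest RT-112 library (12.58 CPM).

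GATA3, on chromosome 10 from 8045378 to 8075198, averaged 226.5 ± 23.7 CPM in RT-112, 190.8 ± 113.3 CPM in CAL-29 and 128.8 ± 63.9 CPM in HT-1376, and these ranges overlapped. GRHL3, on chromosome 1 from 24199558 to 24364482, was low everywhere, at 1.27 to 3.47 CPM in RT-112, 0 to 2.63 CPM in HT-1376 and 0.39 to 10.94 CPM in CAL-29. Genes on the opposite strand overlap GATA3 (GATA3-AS1), ELF3 (ELF3-AS1), FOXA1 (TTC6), GRHL3 (GRHL3-AS1 and STPG1) and UPK2 (BCL9L) and have rows of their own. Whether the assignment of tags to genes used the strand is not given in the sources used here.

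In limma on log2(CPM + 0.5) with the variant as a term, 7 of the 10 genes were higher in RT-112 than in HT-1376 and 0 lower, whereas 61.9% of all 13022 genes differed (19.2% higher, 42.7% lower). The 7 were FOXA1 (log2FC of 6.10, adjusted p = 9.2e-11), UPK2 (5.15), UPK1A (4.17), ELF3 (1.91), KLF5 (1.27), PPARG (1.10) and GATA3 (0.94, adjusted p = 0.0261), with Benjamini-Hochberg adjustment over all genes. The call of GATA3 was lost without WA or WC (adjusted p of 0.0782 and 0.069). For FOXA1 and UPK1A these fitted values depend on the pseudocount and are no bound. UPK1A reached 5 CPM only in RT-112, so its high level there was a condition of its being tested and counted here. The median log2FC was 1.18 over the 10 genes and -0.43 over all genes, and after TMM scaling, which moved the median of all genes to -0.05 and the calls from 2498 higher and 5557 lower to 3795 and 3877, 8 of the 10 were higher.

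Between HT-1376 and CAL-29, 7 of the 10 genes were lower in HT-1376 and 0 higher (61.0% of all genes differed, 43.4% lower). FOXA1 fell by 7.31 on the log2 scale, UPK2 by 2.44, KLF5 by 2.09, ELF3 by 2.04, UPK3A by 1.63, PPARG by 1.59 and UPK1A by 0.88. UPK3A reached 5 CPM only in CAL-29 WK, so its being lower in HT-1376 was a condition of its being tested. For FOXA1, UPK1A and UPK3A, at 0 to 2 reads per library in HT-1376, these values depend on the pseudocount. The value of UPK1A was near the threshold (adjusted p = 0.0489 in limma, 0.00557 to 0.256 over the alternatives, the highest without WK). The median of all genes was -0.47, and -0.11 after TMM scaling, with 2298 genes higher and 5646 lower turning into 3432 and 3993. Of the 10 genes, 6 were then lower and 1, UPK1B, higher.

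RT-112 and CAL-29 differed in 5 of the 10 genes, when 71.5% of all genes differed, so the share of luminal genes did not exceed that of genes in general. UPK1A (log2FC of 3.30) and UPK2 (2.71) were higher in RT-112 (15.3% of all genes), and FOXA1 (-1.21), KLF5 (-0.82) and UPK3A (-1.71) were lower (56.2%). UPK1A reached 5 CPM only in RT-112 and UPK3A only in CAL-29 WK, so these directions were a condition of their being tested. UPK3A was at 0 CPM in RT-112, so its value depends on the pseudocount. KLF5 was also not called without WK or WA (adjusted p of 0.0683 and 0.107). The calls of FOXA1 and KLF5 depended on the scaling. After TMM scaling, which moved the median of all genes from -0.84 to -0.12 and the calls from 1994 higher and 7320 lower to 4190 and 4839, FOXA1 was at -0.42 (adjusted p = 0.112) and KLF5 at -0.04 (adjusted p = 0.903). The 10 genes then had 4 higher in RT-112, with GATA3 (1.20) and UPK1B (2.20) added, and 1 lower, UPK3A (-1.46), and DESeq2 had 5 higher, with GRHL3 in addition, and 1 lower. Libraries of a line share that line, so these p-values measure the spread between its transduced variants. In bulk RNA, fewer cells with a transcript and less of it per cell cannot be told apart.

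Other genes of the luminal and basal programmes, from lists chosen with earlier results of these data known, gave a mixed picture. UPK3B, a further uroplakin, was higher in RT-112 than in HT-1376 (log2FC of 3.72) and higher in CAL-29 than in RT-112 (RT-112 against CAL-29, -1.35). Among 14 other luminal markers tested, 6 were higher and 2 lower in RT-112 than in HT-1376, led by GPX2 (8.25) and FGFR3 (7.08) on the higher side and KRT8 (-2.10) on the lower. Of all genes, 19.2% were higher in RT-112. Of 13 basal markers, 2 were higher (KRT5, 2.57, and KRT1, 2.16) and 6 lower, led by KRT14 (-6.95) and DSC3 (-3.15), when 42.7% of all genes were lower, so the share of basal markers was near that of genes in general. KRT14 held 345.55 to 766.29 CPM in HT-1376, at most 4.27 CPM in RT-112 and at most 1.12 CPM in CAL-29.
Of the 14 related transcription factors tested, 6 were higher and 3 lower in RT-112 than in HT-1376, with FOXQ1 (6.48) and TBX2 (4.70) highest and KLF4 (-3.54) lowest. The 12 known target genes of PPARG that were tested moved in both directions, 3 higher, among them FABP4 (7.97), and 6 lower, among them PLIN2 (-5.27), again near the 42.7% of all genes.

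The comparison of each variant with KK over the 3 lines asks whether a transduction changed the genes in all lines alike. None of the 10 genes passed in any of the 5 comparisons in limma (0% of all genes passed), with or without the cell line as a block, nor in edgeR or DESeq2. At an unadjusted p under 0.05 there was 1 gene, GRHL3 in WK against KK, in limma and in DESeq2, and 0 in edgeR. Blocking by line in limma added PPARG in KC against KK, whose adjusted p was 0.90. Such an unadjusted p was found for 38 of all 13022 genes in WK against KK, and for 550 in KC against KK with the block. GRHL3, a grainyhead factor of the epidermal and urothelial barrier, was 2.27 higher in WK than in KK on the log2 scale (SE 0.80, adjusted p = 0.9999 in limma). It was higher in 3 of 3 lines, from 1.72 to 3.43 CPM in RT-112, from 0 to 1.95 CPM in HT-1376 and from 0.39 to 10.94 CPM in CAL-29. Without the library labelled CAL-29 WK the value was 1.64. GRHL3 entered the test only through that library, so its being high there was a condition of its being tested.

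FOXA1 in KC against KK was at -2.05 on the log2 scale (SE 2.85), and at -0.87 without the library labelled CAL-29 KC. Its direction turned, to 0.55, with the cell line as a block as well. UPK1B, at 783.23 CPM in that library and 20.57 CPM in CAL-29 KK, was at 1.64 (SE 1.07) in KC against KK, and at 1.49 without that library or 1.00 with the block as well. Of the 10 genes, 8 lay within the range of HT-1376 in the library labelled CAL-29 KC and 4 within the range of the other CAL-29 libraries. The exceptions to HT-1376 were ELF3, at 151.96 CPM, and KLF5, at 48.71 CPM, both above its highest library.

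The effects of WWOX, AP-2α and AP-2γ fitted across the lines, with the line as a term, called 0 of the 10 genes in limma, and 0% of all genes. At an unadjusted p under 0.05 there was 1 gene, GRHL3, for W against K (log2FC of 1.01, SE 0.42, adjusted p = 0.366), and likewise in edgeR and DESeq2, and there was none for AP-2α or AP-2γ with any of these tools. The same condition holds for this value, since the library through which GRHL3 entered is a W library, and without it the value was 0.72 (adjusted p = 0.416). In limma, 1598 of all 13022 genes had an unadjusted p under 0.05 for W, 199 for AP-2α and 343 for AP-2γ.

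Within the lines, GATA3 was lower in the W libraries of HT-1376 and KLF5 higher in those of CAL-29. GATA3 in HT-1376 was at 151.93, 242.73 and 133.73 CPM in the K libraries KK, KA and KC, and at 79.37, 73.81 and 90.99 CPM in the matching W libraries. All W libraries lay below all K libraries, as for 22.8% of all genes in this line. GATA3 fell by 1.07 on the log2 scale (SE 0.21, adjusted p = 0.0185 in limma, 0.0132 to 0.137 over the alternatives) and was the only one of the 10 genes called there in limma, when 9.75% of all genes were called (4.70% higher, 5.05% lower). The call was lost in edgeR (adjusted p = 0.0521), with all 18 libraries (0.137) and when KK, KA, WK or WA was left out of all lines (0.0794 to 0.087). GRHL3 was higher in W in HT-1376, at 2.21 ± 0.37 CPM (SD, n = 3) against 0.477 ± 0.46 CPM (n = 3), with all W libraries above all K libraries, as for 12.8% of all genes. It did not pass in limma (1.59, adjusted p = 0.0972) but was called in DESeq2 (2.89, adjusted p = 0.00646), which called 2 of the 10 genes and 13.7% of all genes. TFAP2C, which encodes AP-2γ, was also lower in WK than in KK of this line (68.99 and 158.24 CPM). In WC, which carries AP-2γ, it was 2.36 times the level of WK. The part of TFAP2C in this result was not tested.

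KLF5 in CAL-29 was 105.39 CPM in KK, 71.00 in KA, 288.01 in WK, 254.99 in WA and 85.75 in WC. It was high in WK and WA, while WC lay between the K libraries. Since KC was left out, WC was the only AP-2γ library of CAL-29, and the W effect there rested on KK, KA, WK and WA. The spread behind the test is pooled over the lines and comes mostly from RT-112 and HT-1376, so it says little of the spread within CAL-29. KLF5 was 1.64 higher on the log2 scale (SE 0.24, adjusted p = 0.0258 in limma, 0.000171 to 0.105 over the alternatives). It was the only one of the 10 genes called, when 0.730% of all genes were called (0.538% higher and 0.192% lower, or 70 and 25 genes, and 47 and 35 after TMM scaling). Without CAL-29 WK it was at 1.84, but that value compares WA with KA alone and leaves no spread within CAL-29. The call was lost in edgeR (adjusted p = 0.0755) and when any one variant was left out of all lines (0.0603 to 0.105). WWOX itself was 63.68 CPM in KK, 51.31 in KA, 154.92 in WK and 69.27 in WA of this line.

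The other luminal genes of CAL-29 did not pass. GATA3 was at 1.16 for W against K (SE 0.26, adjusted p = 0.0994), FOXA1 at 1.27 (SE 0.29, adjusted p = 0.103), UPK1A at 1.92 (SE 0.38, adjusted p = 0.0655) and UPK1B at 2.77 (SE 0.83, adjusted p = 0.20), all in limma. The median over the 10 genes was 1.35 in CAL-29 and 0.10 over all genes, against -0.18 and -0.13 in HT-1376. UPK1B had all W libraries of CAL-29 (560.22, 171.87 and 500.05 CPM) above both K libraries (20.57 and 97.65 CPM), and so did GRHL3, as for 9.00% of all genes. GRHL3 and UPK3A entered the test only through CAL-29 WK, a W library, and the median of the other 8 genes was also 1.35.

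In RT-112, 0 of the 10 genes and 0% of all genes were called in limma for W against K, and ELF3 alone had an unadjusted p under 0.05, also in edgeR and DESeq2. In limma, 1021 of all 13022 genes had such a p. ELF3, an ETS factor of epithelial differentiation, was at 192.09, 144.69 and 188.40 CPM in the K libraries and at 203.61, 458.74 and 340.96 CPM in WK, WA and WC (log2FC of 0.87, SE 0.28, adjusted p = 0.524 in limma). The W libraries were above all K libraries, as for 9.48% of all genes. RT-112 was the line in which the luminal genes varied least, as did genes in general. The highest and lowest libraries were more than 1 apart on the log2 scale for 3 of the 10 genes there (23.4% of all genes), for 5 in HT-1376 (51.1%) and for 10 in CAL-29 (59.9%). Of the 10 in CAL-29, GRHL3 and UPK3A entered the test only through the high CAL-29 WK library.

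**Figure D2:**
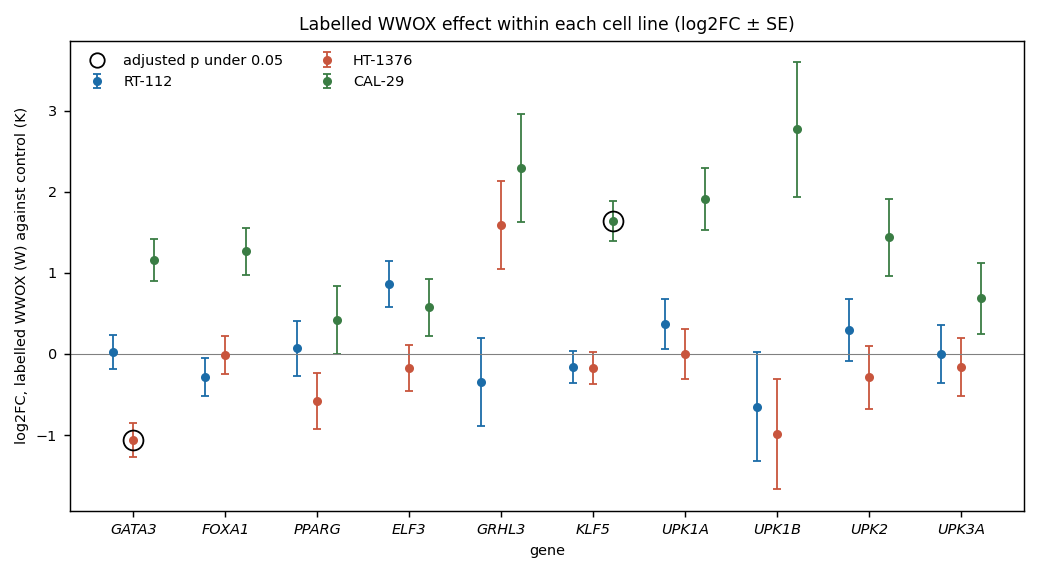
The log2FC of the libraries labelled with WWOX (W) against the control libraries (K) for the 10 luminal genes in each cell line, with bars of 1 SE from limma, and circles where the adjusted p was under 0.05. GATA3 in HT-1376 (-1.07) and KLF5 in CAL-29 (1.64) were the values that passed.

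The difference between HT-1376 and CAL-29 in the W effect was tested itself. GATA3 (-2.23, SE 0.33, adjusted p = 0.0145) and KLF5 (-1.82, SE 0.31, adjusted p = 0.0208) passed in limma, when 4.65% of all genes did (1.98% higher and 2.67% lower, or 258 and 348 genes, and 461 and 333 after TMM scaling). All 10 genes had a negative difference, with a median of -1.50 against -0.27 over all genes. GRHL3 and UPK3A entered the test only through CAL-29 WK, a W library, so their high level there was a condition of this count. UPK1A had no read in HT-1376, and FOXA1 and UPK3A had at most 2 per library. The difference for these genes therefore came almost wholly from CAL-29. Each of the 2 calls was kept after TMM scaling and in edgeR and DESeq2. Without CAL-29 WK the W effect of CAL-29 compares WA with KA alone, so that fit is no check of the calls. GATA3 was not called without KA or WA (adjusted p of 0.079 and 0.0797), nor KLF5 without KA, KC, WA or WC (0.0582 to 0.124). With all 18 libraries, which adds CAL-29 KC, GATA3 was at -1.61 (adjusted p = 0.169) and KLF5 at -1.54 (adjusted p = 0.104). None of the 10 genes passed for RT-112 against HT-1376 or CAL-29 in limma (1.35% and 0.0768% of all genes), where 3 and 6 of them had an unadjusted p under 0.05, and DESeq2 called 0 and 2, and edgeR none.

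Lists of related genes are given for the same contrasts. For W against K in HT-1376, 6 of 13 basal markers were higher and 0 lower, led by KRT6A (5.05) and PI3 (4.05). Of all genes, 4.70% were higher and 5.05% lower. KRT6A, a keratin of activated epidermis, was 0.13, 1.48 and 1.70 CPM in KK, KA and KC and 34.01, 68.25 and 41.58 CPM in WK, WA and WC. The summed level of the basal list was 667.7 to 1071.1 CPM in K and 1065.9 to 1563.5 CPM in W. Of 14 other luminal markers 3 were higher, led by KRT19 (2.67) and GPX2 (2.61), and 3 lower, led by VGLL1 (-2.34), a TEAD cofactor, and CYP2J2 (-1.80).
Among 14 related transcription factors, FOXQ1 was higher (2.95) and GRHL2, the paralogue of GRHL3, lower (-1.21). Of 12 target genes of PPARG, 2 were higher, FABP4 (1.73) and CPT1A (0.95), and 1 was lower. In CAL-29, FGFR3 was the only luminal marker called (2.42 higher), 0 of 13 basal markers and 0 of 12 PPARG targets were called, and VIM was lower (-3.51), from 19.73 CPM in KK and 1.88 in KA to 0.11 in WK and WA and 1.57 in WC. Of all genes, 0.538% were higher there and 0.192% lower.

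**Figure D3:**
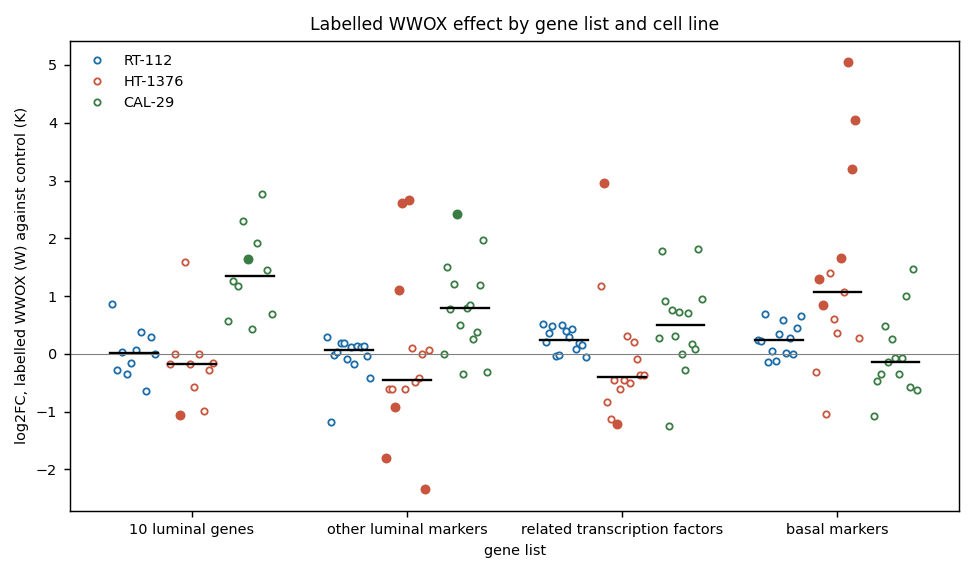
The log2FC of W against K in each cell line for the 10 luminal genes and for lists of other luminal markers, related transcription factors and basal markers. Each point is a gene, filled where the adjusted p in limma was under 0.05, and bars are medians. In HT-1376, 6 of 13 basal markers were higher (4.70% of all genes) and 1 of 10 luminal genes lower (5.05%). In CAL-29 the median of the luminal genes was 1.35.

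CAL-29 WK, a single library, held the highest level of the 5 CAL-29 libraries for 9 of the 10 genes, as it did for 20.4% of all genes. The exception was PPARG, at 27.96 CPM in WK and 33.11 CPM in WA. Leaving aside GRHL3 and UPK3A, which reached the minimum of 5 CPM through this library alone, WK was highest for 7 of the other 8. For 4 genes it was at least 2-fold above every other CAL-29 library, as for 2.90% of all genes. Of the same 8 genes, these were 2. The 4 were GRHL3 (10.94 against at most 2.25 CPM), UPK1A (3.09 against at most 0.71 CPM), UPK2 (16.19 against at most 5.40 CPM) and UPK3A (6.08 against at most 1.35 CPM). WWOX was also highest in this library, and so was KRT20 (18.84 CPM), a marker of umbrella cells, against 5.83 to 13.47 CPM in the others. With 1 library per variant in the line, these values have no replicate check.

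**Figure D4:**
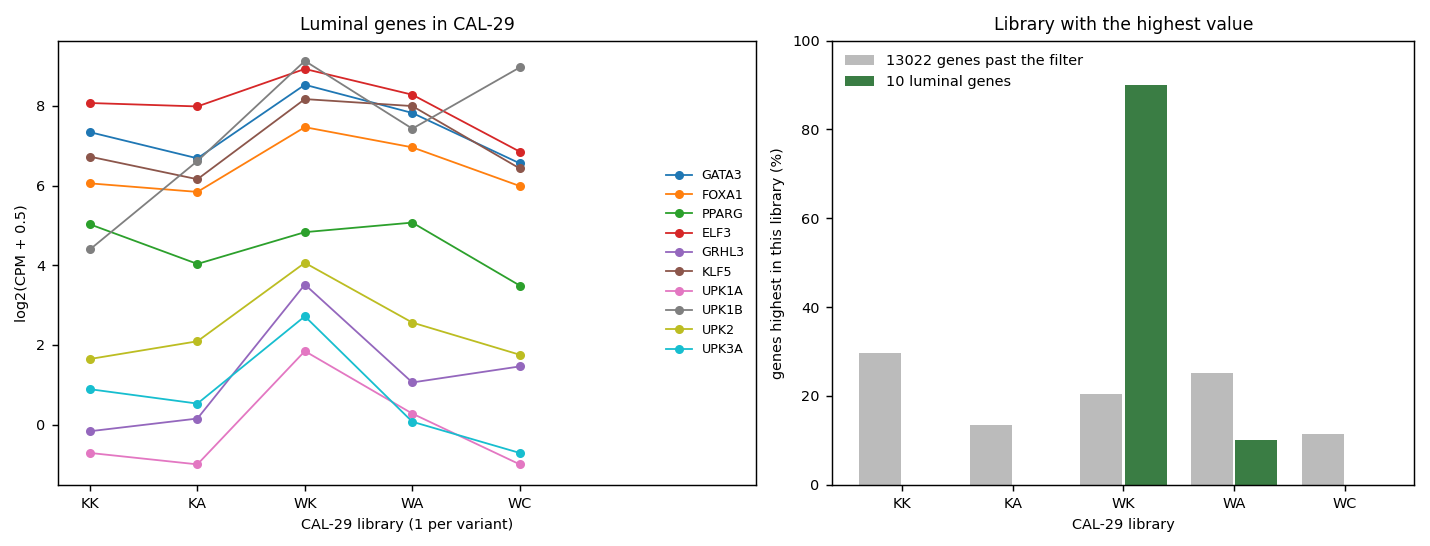
Left, the 10 luminal genes in the 5 libraries of CAL-29 as log2(CPM + 0.5), with lines that join the values of a gene and imply no order. Right, the share of the 10 luminal genes and of all 13022 genes whose highest value was in each library. WK was highest for 9 of the 10 luminal genes and for 20.4% of all genes.

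For AP-2γ in CAL-29, limma called 4 of the 10 genes lower and 0 higher, when 2.45% of all genes were called (0.576% higher, 1.87% lower). They were UPK3A (-2.86, SE 0.58), UPK1A (-2.52, SE 0.50), GATA3 (-1.96, SE 0.34) and KLF5 (-1.84, SE 0.32), and WC was the lowest of the 5 CAL-29 libraries for GATA3 (93.79 CPM), ELF3 (115.05 CPM), PPARG (10.74 CPM) and UPK3A, as for 43.4% of all genes. The effect rested on this 1 library, so the test assumes that WC varies like the other libraries, and no replicate of its own bears on these p-values. UPK3A entered the test only through CAL-29 WK, a library on the other side of this contrast. UPK1A was 0 CPM in WC and in KA and 0.11 CPM in KK. KLF5 in WC (85.75 CPM) lay between KA (71.00 CPM) and KK (105.39 CPM). For UPK1A and KLF5, WC was thus lower than WK and WA but within the range of KK and KA. In WC, TFAP2C was 338.56 CPM against 93.09 CPM in WK. None of the 4 calls was kept after TMM scaling, which moved the median of all genes from -0.49 to -0.03 and the calls from 75 higher and 244 lower to 91 and 54. The tests of the difference from RT-112 and HT-1376 called 0 of the 10 genes in limma (0.0384% and 0.161% of all genes), with 8 and 6 genes at an unadjusted p under 0.05, and DESeq2 called 1 and 0 and edgeR none. Without CAL-29 WK, 5 and 4 of the 10 genes were called against RT-112 and HT-1376, but so were 32.4% and 31.8% of all genes.

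In the same contrast 3 of 13 basal markers were higher, led by KRT6A (6.43) and KRT16 (4.87), and the luminal marker SNX31 was lower (-2.14). Of the PPARG targets FABP4 (3.78) and FABP5 (3.64) were higher. UPK1B was not among the genes that were low in WC. It was 500.05 CPM there, 24.3-fold the 20.57 CPM of KK, and 560.22 CPM in WK.
In RT-112 and HT-1376, AP-2γ called 0 of the 10 genes in limma, with 0 at an unadjusted p under 0.05, and none in edgeR or DESeq2 (0.0384% of all genes in each line). For AP-2α, 0 of the 10 genes were called in RT-112 (0.00768% of all genes), HT-1376 and CAL-29 (0% of all genes in each) in limma, and none in edgeR or DESeq2. At an unadjusted p under 0.05 limma had 0, 1 and 3 genes, namely ELF3 in HT-1376 and GATA3, UPK1A and UPK3A in CAL-29. Among all 13022 genes, 223, 385 and 788 had such a p in the same order of lines. ELF3 was 38.87 CPM in KA and 46.27 CPM in WA of HT-1376, the 2 lowest of its 6 libraries.

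How pairs of luminal genes varied within the lines depended on CAL-29 WK. After the mean of the line was subtracted, Pearson's r of log2(CPM + 0.5) over 17 libraries was above 0.5 for 23 of the 45 pairs (median 0.51), against 15.6% of all pairs of the 13022 genes (median 0.09). It was highest for FOXA1 with KLF5 (0.88) and with UPK1A (0.85), and lowest for PPARG with GRHL3 (-0.30). Without CAL-29 WK, r was above 0.5 for 8 of 45 pairs (median 0.24), a share near the 17.3% of all pairs (median 0.10). FOXA1 with KLF5 stayed at 0.80, KLF5 with UPK1A at 0.76 and GATA3 with PPARG at 0.70, whereas UPK2 with UPK3A went from 0.73 to -0.01. The libraries of a line share their cells of origin and the total to which CPM is scaled, and no p is given.

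**Figure D5:**
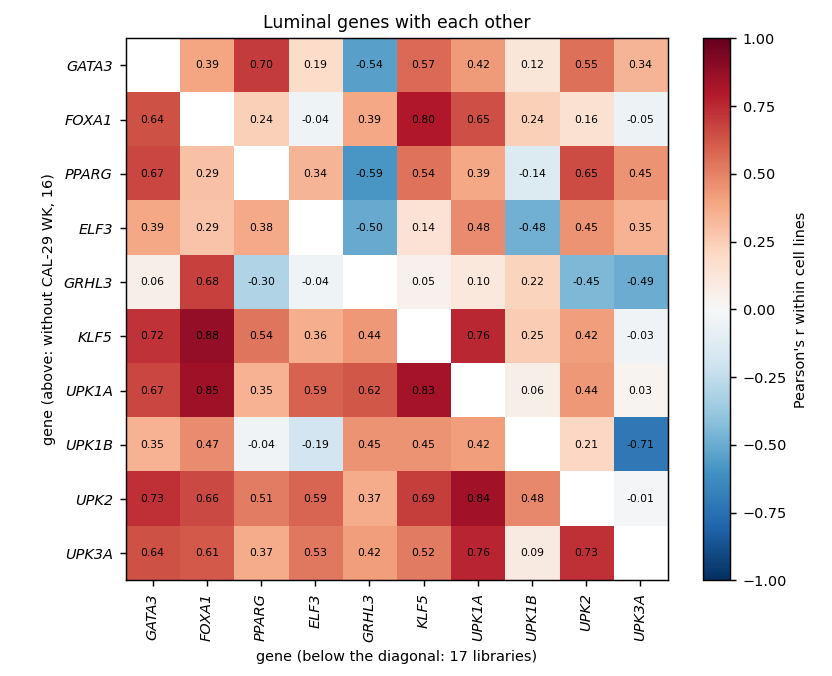
Pearson's r between the 10 luminal genes within cell lines, over 17 libraries below the diagonal and over 16 libraries, without CAL-29 WK, above it. Pairs above 0.5 numbered 23 with that library and 8 without it.

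The genes most like each luminal gene within the lines, by the same r over 17 libraries, are named with their values. For GATA3 they were FBXL17 (0.95), TGFBR3 (0.94) and TLE2 (0.94), for FOXA1 SIDT1 (0.94), ACP3 (0.94) and VTCN1 (0.91), and for KLF5 TRAK1 (0.93), HCG4 (0.91) and, again, SIDT1 (0.91). PPARG was most like CCDC117 (0.93), AAK1 (0.92) and RSPH3 (0.91), ELF3 like SCRN2, TSC22D4 and KLC4 (0.86 to 0.88), and GRHL3 like MIR3142HG (0.94), SPRR3 (0.93) and OAS3 (0.92). SPRR3 encodes a cornified envelope protein.
Among the uroplakins, UPK1A was most like KL (0.95), CIDEB (0.95) and GSDMB (0.93), UPK1B like ESPL1 (0.94) and ARF3 (0.90), UPK2 like FRMD3 (0.90), LNC-LBCS (0.88) and IER2 (0.88), and UPK3A like GPX7 (0.96), CLIC6 (0.96) and SUSD3 (0.94). All of these values stayed above 0.5 without CAL-29 WK, those of UPK2 falling most, to 0.63 for FRMD3, 0.58 for LNC-LBCS and 0.61 for IER2. The genes were picked as the highest over libraries that are reused here, so this is no independent check. No luminal gene was among the 3 most like another.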

How the data were processed

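The authors mapped CAGE-seq reads to hg38 with BWA, and those left over with HISAT2 2.0.5, clustered the tags with Paraclu (RECLU pipeline), filtered clusters by irreproducible discovery rate and deposited 1 CPM value per gene and library. The annotation and the total behind the CPM are not given in the sources used here. Between 99.97% and 99.99% of non-zero CPM values of a library were whole multiples, within 0.005 CPM, of the value of 1 read, and reads were recovered from them. Identifiers were joined to symbols through GENCODE (16553 of 16575 genes). The 13022 genes that reached 5 CPM in 1 library or more were fitted as log2(CPM + 0.5), a scale that understates the change of low genes, with limma 3.58.1 in R 4.3.3 (empirical Bayes with a trend, p adjusted by Benjamini-Hochberg), called at an adjusted p under 0.05. Variants were compared over 18 libraries without a term for the line, since the study's methods state none, and the other fits used 17 libraries. Separate line effects assume that WWOX and AP-2 effects add, and their SEs and p-values use a spread pooled over the lines.

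The same cell line pairs the variants by design. Deviations from the variant means correlated at 0.0363 to 0.881 for CAL-29, 0.588 to 0.896 for HT-1376 and 0.742 to 0.915 for RT-112. Each variant had 1 library per line, so p-values measure the spread between these libraries. The genes and lists were chosen with earlier results of these data known. The text names the 10 genes, the overexpressed genes, up to 2 genes higher and 2 lower per list among those called, and the 3 genes most like each luminal gene. Some genes that this rule names are not reported here. KRT14, KRT20, EPCAM and CDH1, and further TFAP2C and WWOX values, were chosen after their values were seen. Alternatives were other pseudocounts and filters, TMM and quantile scaling, voom, edgeR 4.0.16, DESeq2 1.42.0, each line or variant left out, the cell line as a block and all 18 libraries. Leaving out CAL-29 WK was chosen after seeing the data. Fits were tested on simulated data. Python 3.11.15 with NumPy 2.4.6, pandas 2.3.3 and matplotlib 3.10.9 was used for the rest. No rows were found for UPK3BL1, ELF5 and some other list genes, which were not analysed here.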

Additional observations from a re-analysis of the deposited data

Results flagged for a closer look

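In CAL-29, 4 values of the library labelled WK lay far above the other libraries of the line by Dixon's test on 5 libraries, namely GRHL3 at 10.94 CPM, UPK2 at 16.19 CPM, UPK3A at 6.08 CPM and UPK1A at 3.09 CPM. GRHL3 and UPK3A reached the minimum of 5 CPM through this library alone, so the choice of genes bears on their values here. In all, 26 groups of a gene in a line were tested, and chance would flag about 1 in 20 such groups if values were normally distributed. The test was run on CPM without a log, so that rate need not hold for these low values. The 4 values come from 1 library and are not independent of each other.

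The effect of W against K differed between HT-1376 and CAL-29 for GATA3 (-2.23 on the log2 scale) and for KLF5 (-1.82) by a test of the difference itself. In HT-1376, GATA3 was at -1.07 and KLF5 at -0.18. The values in CAL-29 were 1.16 for GATA3 and 1.64 for KLF5.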

How the results depend on the processing

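The cell line as a replicate block called 0 of the 10 genes in the comparisons of variants, as without it. Among the cell lines, RT-112 against CAL-29 gave 3 genes in place of 5 with all 18 libraries, where FOXA1 turned to 0.10 on the log2 scale. With a line left out, KC against KK ranged from -3.35 to 0.45 for FOXA1 and from -0.14 to 2.96 for UPK1B, both turning without CAL-29, and FOXA1 was at 0.55 with the block and without the CAL-29 KC library. For WWOX within the lines, 2 genes were called, and 0 with edgeR, 4 with DESeq2, 1 with all 18 libraries and 0 to 2 with a variant left out. Of all genes in HT-1376, limma called 9.75%, edgeR 8.77%, DESeq2 13.7% and limma with all 18 libraries 1.08%. In CAL-29 these shares were 0.730%, 0.0154%, 2.07% and 0.392%. For the WWOX differences, 2 were called, and 4 with quantile normalization, 4 with DESeq2, 0 with all 18 libraries and 0 to 2 with a variant left out. For AP-2γ within the lines, 4 were called, and 2 with a pseudocount of 2 CPM, 0 with TMM, 2 with quantile normalization, 1 with voom, 1 with edgeR, 2 with DESeq2, 2 with all 18 libraries and 0 to 4 with a variant left out. The AP-2γ differences gave 0, and 1 with DESeq2, 9 without CAL-29 WK (5 against RT-112 and 4 against HT-1376, when 32.4% and 31.8% of all genes were called) and 0 to 2 with a variant left out. AP-2α gave 0, and 0 to 1 with a variant left out. The share of all genes called also moved with the setting, so a change in these counts need not be particular to the 10 genes. By rank correlation, 11 of the 30 most like genes were shared. The causes were not tested. Pseudocounts matter most for genes near 0 reads, and 1 library per variant and line limits every result within a line.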
